A study of Mus musculus with 6 samples.

Results

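Hearts of C57BL/6 mice at 14 months of age were compared with hearts at 5 months, using all 6 samples of a series of 6. At 14 months there were 2 wild-type (WT) hearts, numbered 1 and 2 in the sample titles, and 2 hearts titled as knockout (KO) of Trdn-as, also numbered 1 and 2. At 5 months there was 1 WT heart and 1 KO heart, both numbered 3, so the control and knockout genotypes were present at both ages. Trdn-as is named as an antisense transcript of Trdn, the gene of triadin. How the knockout was made, its breeding and the sex of the animals are not given in the labels, and the level of Trdn-as itself was not analysed here. Per the labels, hearts were flash frozen, Trizol was used to take up the RNA, and 1 ug of it entered each library for Illumina sequencing. Nothing says that the samples of an age came from separate litters or days, so the p-values measure only the spread between these 6 samples. Number 3 and any batch it stands for cannot be told apart from the age of 5 months.

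The adult heart is built of large contractile cardiomyocytes that burn mainly fatty acids in their many mitochondria. Between them lie fibroblasts, which make the collagens and other matrix proteins, and the endothelial, smooth muscle and pericyte cells of the vessels. Accumulation of matrix, lower mitochondrial capacity, altered calcium handling and changed protein turnover are known for the ageing heart, and the gene lists used here follow these themes.

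The normalized totals lay between 19.8 and 23.5 in units of 1e6, and 16735 to 17722 genes were above 0 in a library. Mitochondrially encoded genes took 44.3 to 49.4% of the total at 14 months and 40.0 to 41.6% at 5 months. The tissue label matched its markers: Myh6, the main myosin heavy chain of the adult mouse heart, lay between 159960 and 400430 in every library. Over genes, Spearman correlations were 0.968 to 0.987 between hearts of 1 age and 0.932 to 0.945 between ages, and the first principal component, with 59.0% of the variance, separated the ages. The second component, with 16.4%, separated WT-3 from KO-3. The sums of 4 Y-linked genes were 54.9 and 82.2 in the libraries numbered 2 and 2496 to 4482 in the other libraries, so that 14 months held both kinds of heart and 5 months held high Y-linked values only. A model with this difference as a term called 2650 genes, and its counts are given beside several of the lists below.

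Of 20254 genes, 13823 reached a value of 10 in at least 3 libraries and were tested. The test was limma on log2(value + 1) with genotype as a covariate, and differences are 14 months minus 5 months on that scale, which understates the change of genes with low values. In all, 4663 genes (33.7%) passed an adjusted p of 0.05. Of these, 2447 were higher at 14 months (17.7% of those tested) and 2216 were lower (16.0%), and 895 and 544 of them differed by 1 or more on the log2 scale. The median SE was 0.18, and the median difference over all tested genes was 0.02. All 4663 genes had the same sign in WT and in KO, against 71.2% of all tested genes. In this model a gene whose genotypes disagree has a larger SE and is rarely called. The agreement among called genes therefore follows largely from how they were selected. Complete separation of the ages, with all 4 libraries on 1 side of both others, was seen for 3556 tested genes higher at 14 months (25.7%) and 3449 lower (25.0%). The filter was not symmetric: 71 genes at 10 or more in both hearts of 5 months and under 10 in all 4 older hearts could not be tested, while 127 genes with the opposite pattern were tested and could be called higher.

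The calls were not spread evenly over gene structure. The genes were divided into 5 groups of equal size. In the group with the shortest transcripts (156 to 1791 bases) 7.03% were called higher and 37.4% lower, with a median difference of -0.41. In the group with the longest transcripts (5216 to 123179 bases) 26.2% were called higher and 7.0% lower, with a median of 0.22. By GC content, 5.26% were higher and 24.0% lower in the lowest group, against 29.5% and 9.62% in the highest. The Spearman correlation over genes between transcript length and the age difference was 0.39 in WT and 0.17 in KO. Transcript length therefore moved with the age difference across the table, and its part in the results was not tested. Counts after removal of each library's trend in length and GC content are given beside those of the lists below. That removal gave 3463 calls, 40.5% of them higher at 14 months, against 52.5% in the values as deposited. Of the 4663 genes called as deposited, 2692 were among these 3463, and 135 had a difference of the other sign. Scaling to the genes that are not mitochondrially encoded moved the median of all genes to 0.22, and 73.4% of its 4636 calls were higher.

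**Figure D1:**
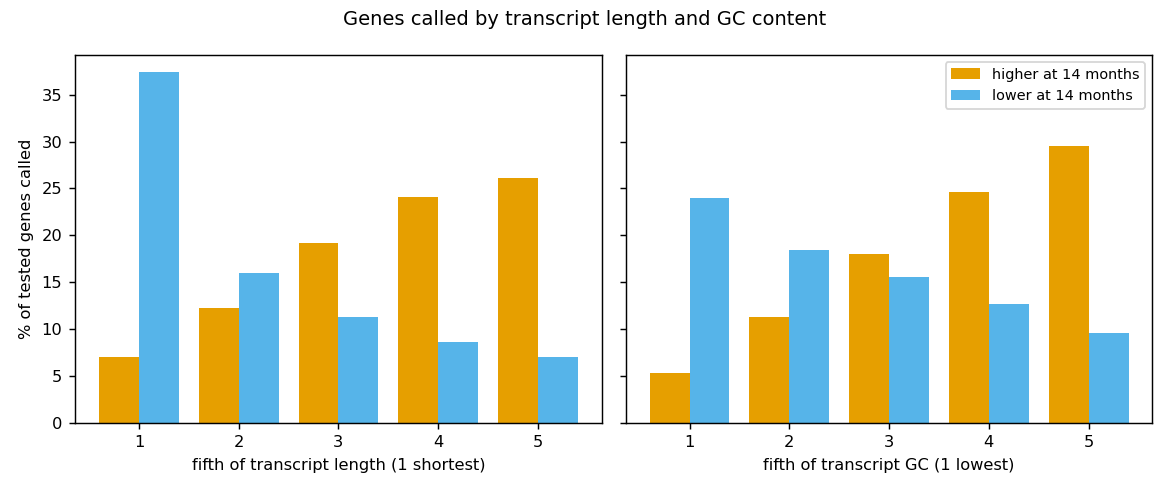
Percent of tested genes called higher or lower at 14 months (y axis) in 5 groups of equal size by transcript length and by transcript GC content (x axis). The share called lower falls from 37.4% in the shortest group to 7.0% in the longest, and the share called higher rises from 7.03% to 26.2%.

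Hsd17b7, an enzyme of cholesterol and steroid synthesis on chromosome 1 (GRCm38, 169949535 to 169969241), had the largest difference of the protein-coding genes named by size. Its values, in the order WT-1, WT-2, KO-1 and KO-2 at 14 months and then WT-3 and KO-3 at 5 months, which is kept below, were 399.7, 506, 400.3 and 449.6 against 38.5 and 25.7. The 4 hearts at 14 months lay close together and far above both hearts at 5 months (log2 difference 3.75, SE 0.19, 13.5-fold higher, adjusted p = 4.78e-05). Mndal, an interferon-inducible nuclear protein of the same chromosome, stood at 378, 424, 366 and 400.3 against 44.3 and 68 (log2 difference 2.81, SE 0.19, adjusted p = 0.00015). Mndal has close relatives in its gene family, and its level is uncertain where reads could be split between them. Egr1, a zinc-finger transcription factor of the immediate early class, was measured at 513, 287, 639 and 708 against 64.3 and 75.8, and the ages did not overlap (log2 difference 2.85, SE 0.25, adjusted p = 0.000363).

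Several of the other leading genes encode proteins of the matrix or of fibroblasts. Prelp, a small leucine-rich proteoglycan of connective tissue, gave 1469, 1654, 2016 and 1569 against 455 and 248 (log2 difference 2.31, SE 0.23, adjusted p = 0.000607). Cd248, a surface protein of fibroblasts and pericytes also called endosialin, gave 139, 209, 168 and 200 against 50.7 and 20 (log2 difference 2.43, SE 0.33, adjusted p = 0.00176). Both were higher in every heart at 14 months, and KO-3 had the lowest value of all 6 libraries for each. Thbs1, the matrix glycoprotein thrombospondin, gave 952, 395, 542 and 616 against 145 and 91, with WT-1 well above the other hearts of its age (log2 difference 2.36, SE 0.32, adjusted p = 0.00166). Chad, the matrix protein chondroadherin, and Creb3l1, a membrane-bound transcription factor that acts on collagen genes, differed by 2.43 and 2.30, and the cadherin Cdh4 by 2.49. Nudt14, a hydrolase of UDP-sugars, the cytochrome P450 gene Cyp2b10 and the WD-repeat gene Wdr89 completed the 12, with differences of 2.29, 2.44 and 2.37. Leaving out 1 library ended the call of Thbs1 (adjusted p = 0.0547 without KO-3) and Cyp2b10 (adjusted p = 0.1 without KO-3 and 0.174 without WT-3). Nudt14 stayed called with a difference of 1.39 without KO-3.

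Genes with the largest differences in the other direction were mostly small proteins of RNA handling, the ribosome and the mitochondrion. Lsm7, a subunit of the ring that binds U6 RNA and decaying messenger RNA (chromosome 10, 80852821 to 80855209), stood at 85.1, 75.2, 47.7 and 77.2 against 635 and 440.4. All hearts at 14 months were below 90 and both hearts at 5 months were above 400 (log2 difference -2.91, SE 0.22, 7.49-fold lower, adjusted p = 0.000222). The ribosomal proteins Rpl13, Rps21 and Rps13 differed by -2.47, -2.44 and -2.42, and the ribosomal paralog Rps27l by -2.35. Cox8b, Cox7a1 and Cox6c, subunits of cytochrome c oxidase, differed by -2.43, -2.34 and -2.32, and Atp5e, a subunit of ATP synthase, by -2.30. Hist1h4h, a histone H4 gene that has many near-identical copies and is uncertain for that reason, differed by -2.64. Vps45, which acts in vesicle fusion, and Pam16, part of the motor that draws proteins into mitochondria, differed by -2.36 and -2.54. Without 1 library the call was lost for Pam16 (adjusted p = 0.067 without KO-1 and 0.201 without WT-3, with a difference of -1.69 without WT-3).

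**Figure D2:**
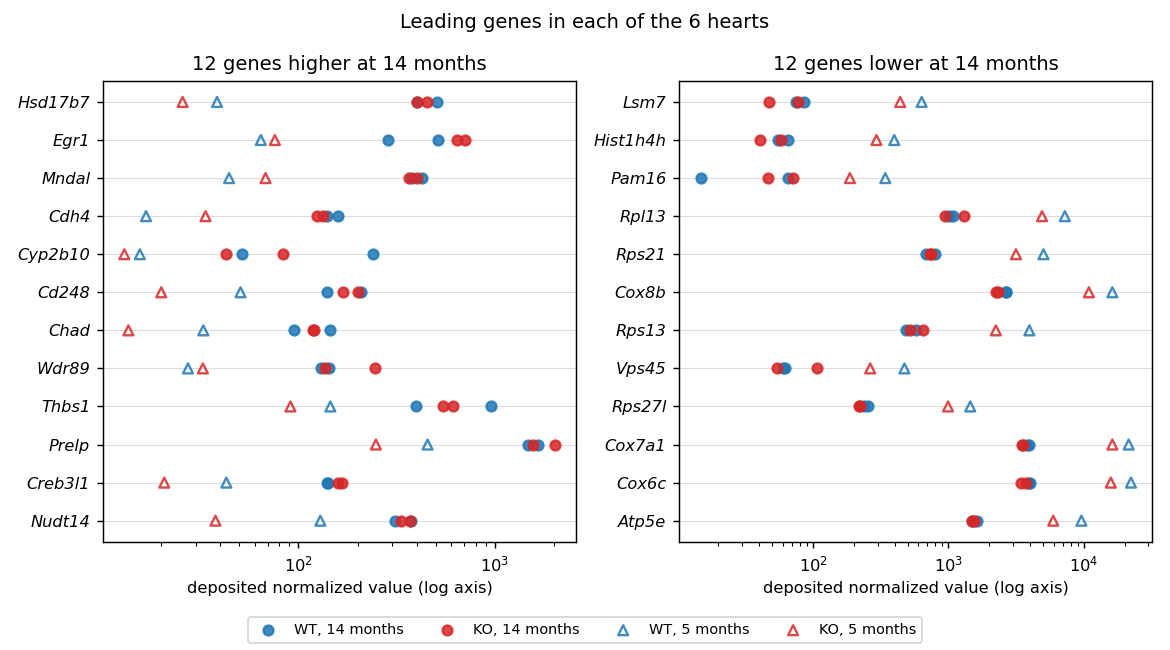
Values on a log axis for the 12 genes higher and the 12 lower at 14 months with the largest differences, 1 point per library (filled circles 14 months, open triangles 5 months, blue WT, red KO). For Hsd17b7 the circles lie between 399.7 and 506 and the triangles at 38.5 and 25.7.

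Collagen genes were higher at 14 months in most cases. Of 23 tested collagens of 25, 20 were called higher and 0 lower, with a median difference of 0.91 (WT 0.71, KO 1.20) against 0.02 for all genes and a background of 17.7% called higher. Col15a1, a basement-membrane collagen around muscle and capillaries, gave 1570.2, 1830.1, 1623 and 1338 against 588 and 243. Both hearts at 5 months lay far below the 4 older hearts, and KO-3 lay below WT-3 (log2 difference 2.06, SE 0.23, adjusted p = 0.000849). Col4a1, the main chain of basement-membrane collagen IV, gave 8284, 7067, 6776 and 6287 against 3066 and 2242, which again separated the ages (log2 difference 1.43, SE 0.13, adjusted p = 0.000403). The fibrillar chain Col1a1 differed by 1.32 and the microfibrillar chain Col6a2 by 1.52. The number called was 16 without WT-1 or WT-3, 13 without WT-2 or KO-2, 12 without KO-1 and 11 without KO-3. The term for the Y-linked difference left 11, and after removal of the length and GC trend 7 were called higher and 1 lower, with a median of 0.42. The median transcript of the list had 6450 bases.

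Other matrix proteins and collagen-processing enzymes showed the same direction, with 24 of 47 called higher and 1 lower (median 0.62). Bgn, the proteoglycan biglycan that binds collagen, gave 5615, 6195, 6215 and 5296 against 2436 and 1360 (log2 difference 1.68, SE 0.19, adjusted p = 0.000837). Both 5-month hearts lay far below every older heart. Fmod, or fibromodulin, which guides fibril assembly, differed by 1.75, and Tnc, the injury-associated tenascin C, stood at 48.9, 30.5, 32.9 and 26 against 8.82 and 5.25. Tnc and the protease Mmp9 were under 10 in both hearts of 5 months and passed the filter through the older hearts alone, so their values are given as a description. Among 20 matrix proteases and inhibitors, 10 were called higher and 1 lower. The proteases Adamts4 and Mmp15 differed by 2.29 and 1.24, and Mmp9 gave 23.1, 37.4, 32.7 and 45.7 against 9.92 and 7.2. Timp4, an inhibitor of metalloproteinases that is abundant in heart, went the other way with 510.2, 562, 419 and 269 against 1599 and 1030.3, so that all 14-month hearts were lower (log2 difference -1.60, SE 0.18, adjusted p = 0.000867). After that trend was removed 16 of the 47 were called higher and 0 lower, and of the proteases and inhibitors 7 higher and 1 lower. The term for the Y-linked difference left 6 of the latter higher.

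Fibroblast markers were higher in part. Of 21 tested markers 11 were called higher and 1 lower, with a median of 0.61 (8, 0 and 0.49 with the trend removed). Without KO-3 7 were called higher, and with the term for the Y-linked difference 5. The matrix lists above hold 8 of the 21, of which 6 were called higher, against 5 of the 13 that no matrix list holds. The summed level of the 22 markers was 42891 to 48420 at 14 months and 23216 to 39163 at 5 months, so KO-3 stood apart from WT-3 as well. Pdgfra, a receptor that defines fibroblasts, gave 608, 824, 800.1 and 692 against 584 and 442 and was not called (adjusted p = 0.0535). Tcf21, the other defining factor, gave 67.2, 104, 79 and 85.5 against 139 and 77.7, also without a call (adjusted p = 0.388). Both were chosen for naming after their values were seen. In whole hearts more cells of a type and more RNA per cell cannot be told apart, and the part of fibroblast content in the matrix results was not tested. The secreted Wnt inhibitor Wif1 and the actin-severing protein Gsn were also called higher (1.24 and 1.08). The call was lost without 1 library for Wif1 (adjusted p = 0.0891 to 0.421 without KO-1, KO-2, KO-3 or WT-1, with a difference of 0.33 without KO-3 and 2.16 without WT-3) and Gsn (adjusted p = 0.0502 without KO-2, with a difference of 0.43 without KO-3 and 1.72 without WT-3).

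Immediate early genes, which are switched on within minutes of a stimulus and encode transcription factors such as Fos, Jun, Egr and Nr4a, were also higher at 14 months. All 24 tested members of 26 had a positive difference, 15 were called higher and 0 lower, and the median was 1.01. Egr3 gave 31.5, 23, 39.2 and 59.1 against 7.15 and 11.8, with no overlap between the ages (log2 difference 1.86, SE 0.35, adjusted p = 0.00567). Egr2, 1 of the 15, gave 27.6, 21.4, 25 and 22.1 against 3.66 and 5.36 and passed the filter through the older hearts alone, so its value is only a description. Nr4a1, an orphan nuclear receptor, gave 716, 222, 1295 and 1924 against 101 and 452. There WT-2 lay below KO-3, so the ages overlapped, although within each genotype the older hearts were higher (log2 difference 1.89, SE 0.43, adjusted p = 0.0174). In all, 12 of the 24 genes separated the ages completely, against 25.7% of all tested genes in that direction. WT-2 had the lowest value of the 14-month hearts for Fos, Fosl2, Nr4a1 and Nr4a3, genes looked up after the pattern was seen. After removal of the length and GC trend 12 were called higher. With 1 library left out 8 (without KO-3) to 18 were called. Calls were lost on leaving out 1 library for Nr4a1 (adjusted p = 0.197 without KO-3 and 0.237 without WT-3).

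**Figure D3:**
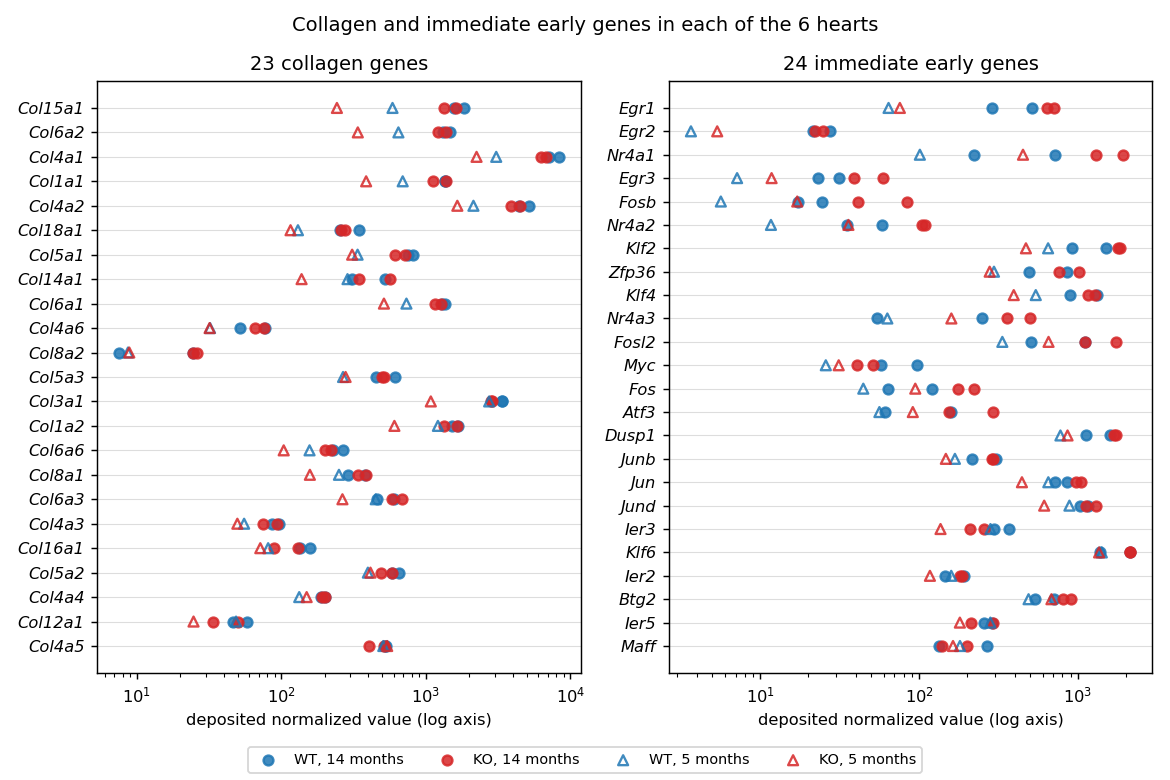
Values on a log axis of the 23 tested collagens and the 24 tested immediate early genes, 1 point per library (filled circles 14 months, open triangles 5 months, blue WT, red KO). For 20 collagens every circle lies above both triangles, while this holds for 12 of the immediate early genes and for 25.7% of all tested genes.

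Nuclear genes of the respiratory chain, which build complexes I to V of the inner mitochondrial membrane, were lower at 14 months. Of 78 tested genes 63 were called lower and 2 higher, against a background of 16.0% lower, and the median difference was -1.06. The ages separated completely for 65 of them in that direction, against 25.0% of all tested genes. Cox8b stood at 2662, 2659, 2249.5 and 2341 against 16253 and 10900 and Cox7a1, the muscle form of another oxidase subunit, at 3932, 3776, 3537 and 3483 against 21451 and 16254. The 4 older hearts were within a narrow range and both younger hearts were several times higher (log2 difference -2.43, SE 0.13, adjusted p = 5.08e-05 for Cox8b). The complex I subunits Ndufa2 and Ndufa12, picked from the list after their values were seen, differed by -2.27 and -2.09. Other subunits of the same complexes were not called: Atp5a1, the alpha chain in the catalytic head of ATP synthase, gave 46079, 45728, 44732 and 48989 against 69835 and 39346 (log2 difference -0.18, SE 0.20, adjusted p = 0.516), and Uqcrc1, a core protein of complex III, differed by -0.14 (adjusted p = 0.495). Cyc1, the cytochrome of complex III, and Atp5g2, 1 of the genes of the ATP synthase c ring, were the 2 called higher, with differences of 0.59 and 1.33. The median transcript of this list had only 891.5 bases, and after the trend was removed 61 genes were still called lower and 3 higher, with a median of -0.84.

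The 13 protein genes of mitochondrial DNA had a median difference of 0.14. In the values as deposited 1 was called higher, mt-Co2 (1.08), and 3 lower, mt-Atp8 (-1.55), mt-Nd3 (-0.58) and mt-Nd4l (-0.53). The oxidase subunit mt-Co2 gave 866200, 823390, 977320 and 833150 against 465940 and 364880. Both younger hearts lay below every older heart. Removing the trend made 9 higher and 3 lower, and scaling to the other genes 7 and 2, so the count for this list depended on the scaling. The value of mt-Nd3 turned to 0.23 with quantile normalization. Leaving out 1 library ended the call of mt-Nd3 (adjusted p = 0.0682 without WT-1 and 0.0571 without WT-2) and mt-Nd4l (adjusted p = 0.101 to 0.111 without KO-2, WT-1, WT-2 or WT-3).

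Ribosomal and proteasome genes were lower at 14 months as groups. Of 76 cytosolic ribosomal protein genes 66 were called lower and 0 higher, with a median of -0.95 (-0.82 and 60 lower with the trend removed). Rps21 gave 679.6, 795, 746 and 725 against 5036 and 3156 and Rps23 gave 559.7, 605, 536 and 576 against 2591 and 1761. For both genes each younger heart lay far above every older heart (log2 differences -2.44 and -1.91). Ribosomal protein genes have many processed copies in the genome, so their single values are uncertain where reads could be shared. Among 31 proteasome genes, which form the main protease for tagged proteins, 24 were called lower and 1 higher (median -0.70). The core subunits Psma3, Psmb7, Psmb5 and Psma7 differed by -1.96, -1.57, -1.43 and -1.33. Psmb7 stood at 1147, 1151, 1070.1 and 1196 against 3966 and 2907, and WT-3 was the highest library. The regulatory subunit Psmd3, named because it was the exception, was higher (log2 difference 0.49, SE 0.12, adjusted p = 0.019, difference 0.32 in WT and 0.65 in KO). Of the proteasome genes 18 were called lower and 1 higher with the trend removed, with a median of -0.43.

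**Figure D4:**
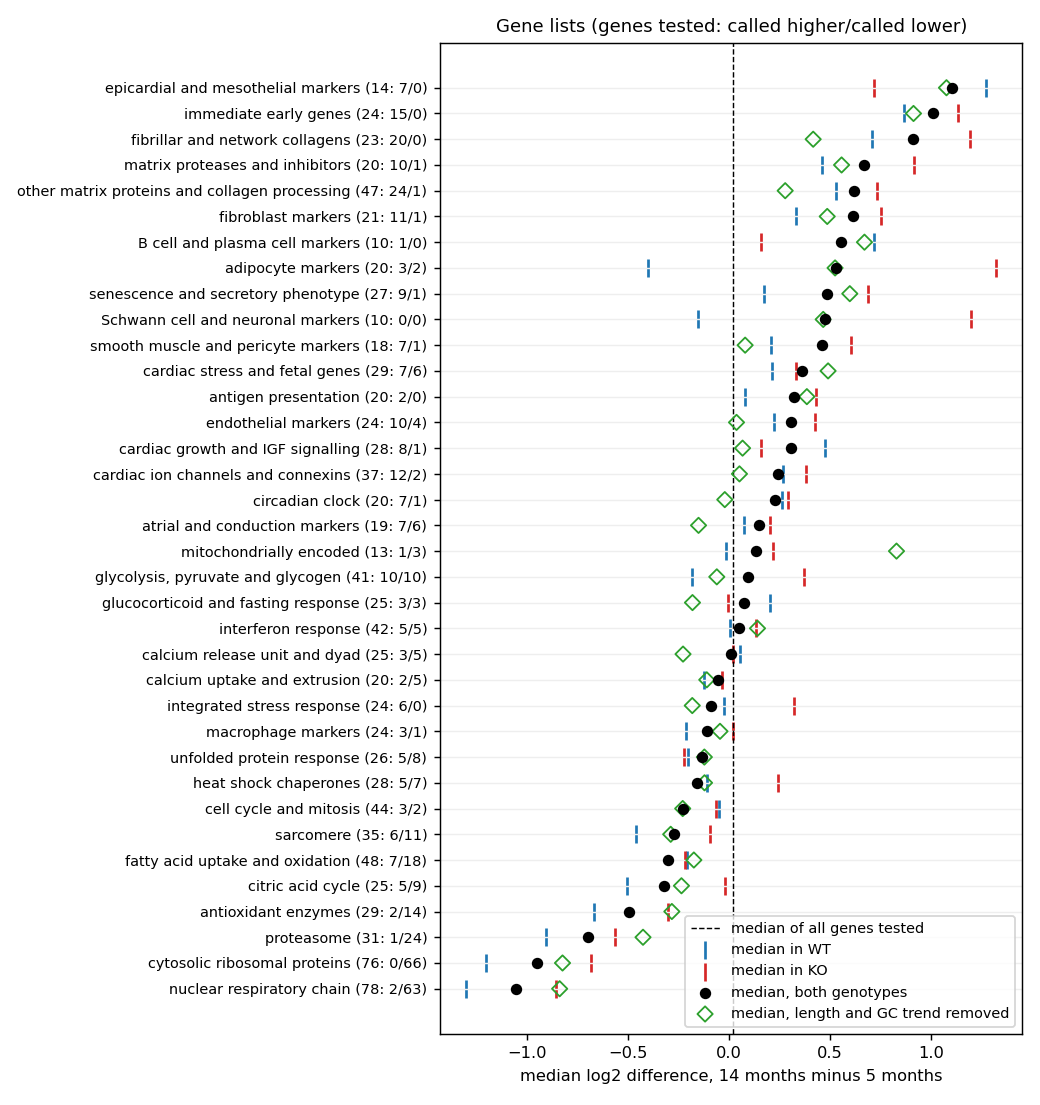
Median log2 difference between 14 and 5 months (x axis) for the 36 lists with at least 10 tested genes: black points for both genotypes together, ticks for WT and for KO alone, green diamonds after removal of the length and GC trend, and a dashed line for all tested genes. Collagens (0.91) and immediate early genes (1.01) lie to the right of the line, and ribosomal (-0.95) and nuclear respiratory genes (-1.06) to the left.

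Genes of fuel use were divided by step. In fatty acid uptake and oxidation 18 of 48 were called lower and 7 higher (median -0.30), against 16.0% and 17.7% of all tested genes. The higher calls did not exceed that background. Fabp3, which carries fatty acids in the cardiomyocyte cytosol, gave 31482, 33768, 30365 and 27343 against 78686 and 60700 (log2 difference -1.17, SE 0.13, adjusted p = 0.000865), and Etfb, which passes electrons from acyl-CoA dehydrogenases to the respiratory chain, differed by -1.62. Both separated the ages. Acaca, the acetyl-CoA carboxylase that starts fatty acid synthesis, was higher, but unevenly, with 384, 439, 1123 and 2009.8 against 193 and 173. The 2 older KO hearts were far above the 2 older WT hearts. The summed level of 23 adipocyte markers, Acaca among them, was 27526 and 43524 in those KO hearts, 16380 and 21192 in those WT hearts and 35266 and 28692 at 5 months, and its part in the Acaca value was not tested. Much of the 5-month sums came from Cox8b, which is also a respiratory chain gene. It stood at 16253 and 10900 at 5 months and at 2249.5 to 2662 at 14 months, so these sums do not compare adipocyte content between the ages. The share of higher calls in this list moved with scaling: 11 higher and 11 lower with scaling to genes not mitochondrially encoded, 11 and 13 with quantile normalization, and 1 and 16 with the trend removed. The term for the Y-linked difference gave 2 and 10, and leaving out KO-1 gave 4 and 14. Without 1 library the call was lost for Acaca (adjusted p = 0.0664 without KO-1 and 0.0605 without KO-3, with a difference of 1.08 without KO-3).

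The citric acid cycle and glucose lists were mixed. Of 25 cycle genes 9 were called lower and 5 higher (median -0.32), against a background of 16.0% lower and 17.7% higher. Sdhd and Sdhb, subunits of succinate dehydrogenase, differed by -1.10 and -1.05, while Ogdh, the first enzyme of the oxoglutarate dehydrogenase complex, was higher with 33901, 32201, 34668 and 35673 against 17687 and 11290 (log2 difference 1.27, SE 0.18, adjusted p = 0.00183). Of 41 genes of glycolysis, pyruvate and glycogen 10 were called higher and 10 lower, against the same background. On the glycogen side, Gys1 (glycogen synthase) and Pygm (muscle glycogen phosphorylase) differed by 1.28 and 1.18. Pygm stood at 16323, 17235, 16338 and 16963 against 8993 and 6053, with both younger hearts below every older heart. On the pyruvate side, Mpc2, a subunit of the mitochondrial pyruvate carrier, differed by -1.25. Without WT-3 the counts were 19 higher and 9 lower for the glucose list and 8 and 8 for the cycle, and without KO-3 7 and 13, and 2 and 16. Leaving out WT-1 or KO-1 gave 8 and 6 for the glucose list, and the cycle had 3 higher and 7 lower without WT-1 and 3 and 8 without KO-2. With the trend removed the counts were 8 and 8, and 2 and 7.

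In the sarcomere, 11 of 35 genes were called lower and 6 higher, against 16.0% and 17.7% of all tested genes. The higher calls did not exceed that background. The median of -0.27 turned to 0.11 (7 lower, 12 higher) with quantile normalization. Csrp3, the muscle LIM protein that senses stretch at the Z disc, gave 7545, 8023, 7234 and 7861 against 24892 and 19143 (log2 difference -1.51, SE 0.13, adjusted p = 0.00036). Tcap, which ties titin to the Z disc, gave 6367, 9412, 5189.6 and 7247 against 22371 and 14708 (log2 difference -1.40, SE 0.20, adjusted p = 0.00208). The ages did not overlap for either gene. Xirp1, an actin-binding protein of the intercalated disc, and Mypn, the Z-disc protein myopalladin, were higher, by 1.53 and 1.19. Without WT-3 the counts were 8 lower and 11 higher, and without KO-3 17 and 4. Scaling to the genes not mitochondrially encoded gave 10 and 10, the term for the Y-linked difference 7 and 4, and removal of the trend 13 and 5.

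Classical stress genes did not share a direction. Against a background of 17.7% higher and 16.0% lower, 7 of 29 were called higher and 6 lower (7 and 5 with the trend removed). Without WT-1, WT-2 or WT-3 only 3 were called lower, and without KO-1 4 were called higher. Nppa, the atrial natriuretic peptide that is also re-expressed in stressed ventricle, was lower with 15704, 10675, 13038 and 7227 against 36768 and 24597 (log2 difference -1.42, SE 0.25, adjusted p = 0.00438). Nppb, the brain natriuretic peptide, gave 1622, 1148, 2227 and 1698 against 3056 and 2147 and was not called (adjusted p = 0.0775). Nrg1, a growth factor that endothelial cells send to cardiomyocytes, was higher (1.15). The atrial genes Sln (a sarcolipin that inhibits the calcium pump), Myl7 and Myl4 (atrial myosin light chains) were lower together with Nppa: Myl7 stood at 2426, 2295, 2724 and 1943 against 10233 and 5780.3 (log2 difference -1.72, SE 0.21, adjusted p = 0.00106). The summed level of the 23 atrial and conduction markers was 20872 to 34767 at 14 months and 46291 to 71412 at 5 months. How much atrium each sample held was not measured, and its part in the difference was not tested. Of the 19 tested markers, 7 were called higher, among them the pacemaker channel Hcn4 (1.35), and 6 lower, or 2 and 5 with the trend removed. Without WT-3 these counts were 5 and 2, and without KO-3 4 and 6. Nppb and Myl4 were named after their values were seen. The call was lost without 1 library for Nppa (adjusted p = 0.0979 without KO-3 and 0.118 without WT-3), Nrg1 (adjusted p = 0.0565 to 0.106 without KO-1, WT-1, WT-2 or WT-3) and Hcn4 (adjusted p = 0.0993 without KO-3, with a difference of 0.64 without KO-3 and 2.05 without WT-3).

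For calcium release, 5 of 25 genes were called lower and 3 higher, near the 16.0% and 17.7% of all tested genes, and the list median was 0.01. With the trend removed 6 were lower and 0 higher, and without KO-3 9 were lower. Trdn, the triadin gene, anchors calsequestrin to the ryanodine receptor. It stood at 5702, 5599.8, 3429 and 3459.7 against 9104 and 5606. At each age KO was below WT, and within each genotype the 5-month heart was above both 14-month hearts (WT difference -0.69, KO difference -0.70). The ages overlapped when genotypes were pooled: WT-1 at 14 months lay above KO-3. The age difference with genotype as a covariate was -0.70 (SE 0.11, adjusted p = 0.00282), while the two-sided exact permutation test of the 6 libraries without regard to genotype gave p = 0.2, with 0.0667 the smallest value that 15 splits allow. The difference between genotypes in the age effect was -0.01 (adjusted p = 0.961). Asph (junctin and its relatives), Sri (sorcin, which binds the receptor) and Cav3 (muscle caveolin) differed by -0.77, -0.76 and -0.73. The calmodulin gene Calm2 differed by -0.71, but by 0.01 with the trend removed.

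Calcium uptake and extrusion genes gave 2 of 20 called higher and 5 lower (median -0.06, turning to 0.17 with quantile normalization). The background for this list and the channels below was 17.7% higher and 16.0% lower. Besides Sln (-1.72), Pkia (an inhibitor of protein kinase A) and Vdac3 (an outer-membrane channel of mitochondria) were lower, at -0.84 and -0.86. With the trend removed 3 genes of the list were called lower and 0 higher. Vdac3 was not among those 3 (-0.28 with the trend removed, adjusted p = 0.0634 by limma). The pump Atp2a2 gave 161930, 155860, 156670 and 177640 against 133960 and 112670 (log2 difference 0.41, SE 0.15, adjusted p = 0.063, named after its values were seen), so both younger hearts were below the older hearts without a call. Ion channels and connexins were more often higher, with 12 of 37 called higher and 2 lower. Scn4a, a sodium channel best known from skeletal muscle, gave 539, 554, 661 and 560.4 against 99.9 and 179 (log2 difference 2.10, SE 0.18, adjusted p = 0.000346), and the beta subunit Scn4b differed by 1.23. The older hearts were higher in every library for both. The median transcript of the channel list had 4234 bases, and with the trend removed 5 were called higher and 4 lower.

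Heat shock genes are switched on by the factor HSF1 at the heat shock element, and 3 promoters that hold it are shown because their genes did not share a direction. The sequences are from RefSeq (GRCm38.p6), 5′ to 3′ on the strand of the gene, with each match to GAANNTTC in capitals. The first is from chr17:34972197-34972296 on the minus strand, the second from chr5:135887779-135887878 on the plus strand and the third from chr1:55088053-55088082 on the plus strand. The first and second run from 140 to 41 bases before the start site and the third from 95 to 66.
Hspa1a: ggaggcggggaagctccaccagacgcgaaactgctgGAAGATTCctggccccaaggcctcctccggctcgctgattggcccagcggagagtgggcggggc
Hspb1: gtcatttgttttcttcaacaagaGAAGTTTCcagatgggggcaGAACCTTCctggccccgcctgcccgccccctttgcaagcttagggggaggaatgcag
Hspe1: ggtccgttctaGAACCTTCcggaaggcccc

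Hspa1a, an inducible HSP70, gave 303, 57.1, 160.5 and 133 against 45.3 and 22.6, with a wide spread among the older hearts in which WT-2 was near WT-3 (log2 difference 2.08, SE 0.60, adjusted p = 0.0326). Its near-identical neighbour Hspa1b makes this value uncertain. Hspb1, a small heat shock protein with 2 matches, gave 2023, 1784, 1842 and 1793 against 3379.8 and 2155 and was lower (log2 difference -0.54, SE 0.15, adjusted p = 0.0293, difference -0.83 in WT and -0.25 in KO). Hspe1, the mitochondrial HSP10, gave 677, 641, 556 and 599 against 2179 and 1731 and was lower with no overlap (log2 difference -1.65, SE 0.12, adjusted p = 0.000154). In the whole list of 28 genes 5 were called higher and 7 lower, against 17.7% and 16.0% of all tested genes. The share called higher was near that background. The median of -0.16 turned to 0.04 with quantile normalization and with scaling to genes not mitochondrially encoded. Removing the trend left 4 higher and 4 lower, and leaving out 1 library gave 3 to 8 higher and 3 to 8 lower, with a median of 0.24 without WT-3. The element, searched on both strands of the 300-base promoters, was in 10 of the 21 promoters of the list that matched by symbol, 4 of them of called genes, against 5.69% of 10505 promoters of tested genes. Among the other members, Hspb6 and Bag3, a small heat shock protein and a co-chaperone of cardiomyocyte protein turnover, were higher, by 1.36 and 1.35. A match is a description of letters, not of binding. Hspb1 was named for its promoter after its values were seen. Calls were lost on leaving out 1 library for Hspa1a (adjusted p = 0.0531 to 0.366 without KO-1, KO-2, KO-3, WT-1 or WT-3). Hspb6 stayed called with a difference of 0.88 without KO-3.

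In the unfolded protein response of the endoplasmic reticulum 8 of 26 genes were called lower and 5 higher (7 and 3 with the trend removed). The background was 16.0% lower and 17.7% higher. The ligase Syvn1, which marks misfolded proteins for removal, was higher with 396, 377, 477 and 374 against 128 and 157 (2.83-fold on the scale of value + 1, SE 0.15 on the log2 scale, adjusted p = 0.000646), while the secreted factor Manf and the selenoprotein Selenos differed by -0.78 and -1.06. The median of -0.13 turned to 0.06 with scaling to genes not mitochondrially encoded, and leaving out 1 library gave 2 to 5 higher and 4 to 6 lower. In the integrated stress response 6 of 24 were called higher and 0 lower (5 and 2 with the trend removed, 3 and 0 with the term for the Y-linked difference). The amino acid transporter Slc7a5 and the factor Atf5 differed by 1.51 and 0.92. Antioxidant enzymes were more often lower, with 14 of 29 called lower and 2 higher (9 and 2 with the trend removed). Sod1, the cytosolic superoxide dismutase, gave 1973, 2008, 1810.5 and 1853 against 4801 and 3309 (log2 difference -1.06, SE 0.13, adjusted p = 0.00113). Sod3, the form secreted into the matrix, went the other way with 830.3, 709, 1066 and 605 against 279 and 186 (log2 difference 1.78, SE 0.24, adjusted p = 0.00173). Both separated the ages, in opposite directions.

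Senescence and secretory genes gave 9 of 27 called higher and 1 lower with a median of 0.49 (7, 1 and 0.60 with the trend removed). The background for this list and those below was 17.7% higher and 16.0% lower. Cdkn1a, the cell cycle inhibitor p21, gave 1712, 949.6, 1212 and 1199 against 642 and 492, with WT-1 the highest (log2 difference 1.14, SE 0.22, adjusted p = 0.00648). Igfbp5, a secreted binder of insulin-like growth factors, gave 3766, 3749, 4551 and 3581 against 1298 and 972 (log2 difference 1.79, SE 0.16, adjusted p = 0.000386). Tgfb1, the growth factor that drives fibroblasts to make matrix, gave 539, 430.1, 465 and 432 against 208 and 168 (log2 difference 1.31, SE 0.15, adjusted p = 0.000889). All 4 older hearts were above both younger hearts for each of the 3, and the tumour suppressor Trp53 differed by 0.99. In cardiac growth and IGF signalling 8 of 28 were called higher and 1 lower (5 and 1 with the trend removed, 5 without WT-1 or KO-1). Those higher included the matrix signal Ccn1, the forkhead factor Foxo1 and the imprinted gene Mest (1.25, 1.35 and 1.20). Of 20 clock genes 7 were called higher and 1 lower, and 2 and 4 with the trend removed. Without KO-3 the clock counts were 2 and 0, without WT-3 or KO-2 4 and 2, and without WT-1 4 and 0. Arntl, the partner of CLOCK, gave 276, 239.9, 491 and 373 against 173 and 130.4, with the KO hearts highest among the older hearts (log2 difference 1.14, SE 0.26, adjusted p = 0.0126). The hour of tissue collection is not given in the labels. Leaving out 1 library ended the call of Cdkn1a (adjusted p = 0.0867 without KO-3) and Arntl (adjusted p = 0.0755 without KO-3, with a difference of 0.57 without KO-3).

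Markers of the vessel wall were higher in part. Of 24 endothelial markers 10 were called higher and 4 lower. The junction protein Cdh5 and the TGF-beta co-receptor Eng, named by size, differed by 1.35 and 1.28. With the length and GC trend removed they differed by 0.95 and 0.79, and Kdr by 0.65. Pecam1 and Tie1 were then at 0.02 and -0.08, and Vwf was at -0.98. Kdr, Pecam1, Tie1 and Vwf were named after their values were seen. Of 18 smooth muscle and pericyte markers 7 were called higher and 1 lower: Pdgfrb and Notch3 differed by 1.00 and 1.04, and Higd1b, a pericyte gene, by -1.72. The medians were 0.04 and 0.08 with the trend removed, against 0.31 and 0.46 as deposited, and the counts were 8 and 4, and 3 and 2. The summed endothelial level was 34559 to 41511 at 14 months and 32420 to 37164 at 5 months, so the ages overlapped. Of 14 epicardial and mesothelial markers 7 were called higher and 0 lower (median 1.10), 1 of the 7 having passed the filter through the older hearts alone, and 5 with the trend removed and 4 without WT-3 or without KO-2. Aldh1a2, the retinoic acid enzyme of the epicardium, gave 101, 123, 116 and 109.5 against 42.7 and 18.9 (log2 difference 1.94, SE 0.29, adjusted p = 0.00255). Summed over 16 markers the level was 1173 to 1520 at 14 months and 928 to 1008 at 5 months. None of the 42 lists had a member at 0 in every library.

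The age differences of the 2 genotypes were compared gene by gene. The WT difference rests on 2 hearts against 1 and the KO difference likewise. Over all tested genes 71.2% had the same sign in both. The KO difference lay above the WT difference for 7383 genes (53.4%), and the medians were both 0.01. For the nuclear respiratory chain the KO difference was above the WT difference in 78 of 78 genes, with medians of -0.85 in KO and -1.30 in WT, and for ribosomal genes in 75 of 76 (-0.68 and -1.21). Collagens gave 17 of 23, immediate early genes 17 of 24, the sarcomere 27 of 35 and the citric acid cycle 23 of 25. Members of a list share the same 6 libraries and are not independent, so these shares carry no test. The respiratory and ribosomal lists have short median transcripts (891.5 and 941.5 bases). All tested genes of the shortest group (156 to 1791 bases) had medians of -0.28 in KO and -0.56 in WT. The part of transcript length in the list differences between genotypes was not tested.

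Tested gene by gene, the interaction of age and genotype was called for 287 genes (2.08%), with 2 residual degrees of freedom. Each genotype had a single younger heart, so these p-values measure only the spread between older hearts of the same genotype. Variation between single younger animals is not in that spread. A call therefore cannot tell such variation from an effect of genotype on the age difference. The called genes included 9 of the 78 respiratory genes, 6 of 25 citric acid cycle genes, 6 of 35 sarcomere genes and 1 of 23 collagens. Ogdh gave a KO minus WT difference of 0.74 and Bag3 of 0.89. For Ogdh the older hearts lay between 32201 and 35673, and the younger WT and KO hearts at 17687 and 11290. For Bag3 the older hearts lay between 3075.6 and 3643.4, and the younger WT and KO hearts at 1738.2 and 1021.5. In both genes the older hearts of the genotypes lay close together, and the younger hearts differed. The genes of smallest p, Vcp-rs, Eif4a-ps4, Gm10039 and Gm42742, are a related sequence, a pseudogene or predicted genes, and reads could be shared with their parent genes. Vcp-rs was listed at 0 in both KO hearts of 14 months and stood at 1369, 1378, 1327 and 1565 in the others. Leaving out 1 of the 14-month libraries left 15 genes without WT-1, 13 without WT-2, 234 without KO-1 and 222 without KO-2, and quantile normalization left 12, so the count rested on few libraries and on the scaling.

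**Figure D5:**
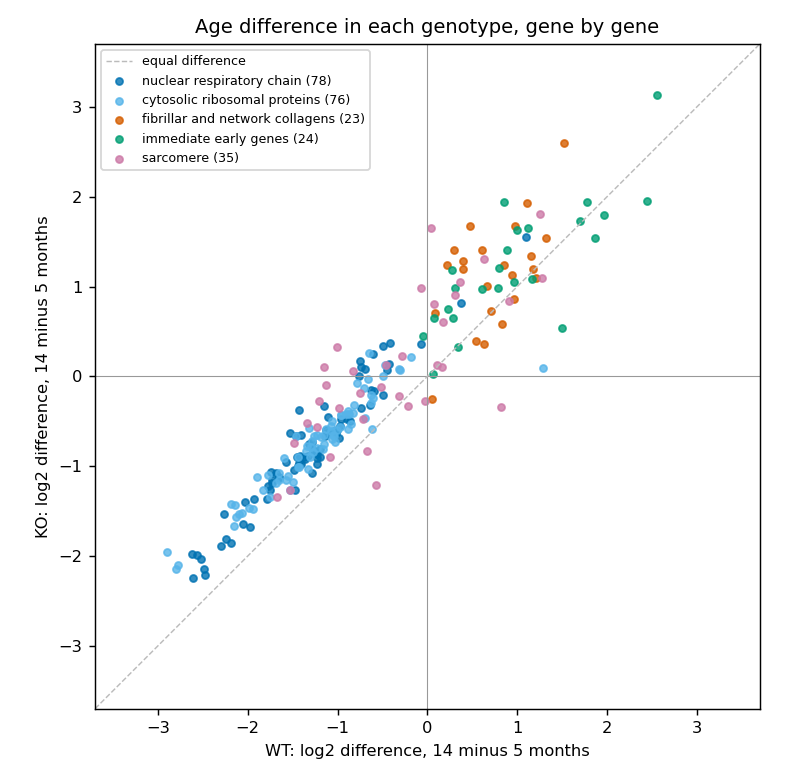
Age difference (14 minus 5 months, log2) in KO (y axis) against WT (x axis) for the genes of 5 lists, 1 point per gene, with a dashed line where both are equal. All 78 nuclear respiratory genes lie above the line.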

How the data were processed

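RNA-seq of 6 mouse hearts was analysed from the authors' deposited table of 1 value per gene and library. The values are a normalized signal made by the authors, who used Salmon 1.5.2 and the mm10 genome per the submitters' processing notes, and the normalization is not given in the sources used here. They are not whole reads (9.16 to 12.0% of the values under 30 fell on whole multiples, within 0.01), so the read depth is unknown, no counting interval is given, and the count test foreseen for read counts was replaced by limma. Of 20362 lines, 108 without values were left out, and 20146 gene identifiers matched the GENCODE M21 annotation (GRCm38), from which positions and gene types come.

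Values were analysed as log2(value + 1) for genes at 10 or more in at least 3 libraries. The model had age and genotype as terms and was fitted with limma 3.58.1 in R 4.3.3, with a mean-variance trend, robust moderation, 3 residual degrees of freedom and Benjamini-Hochberg adjustment over all tested genes. This model was tested first on simulated data with an age effect. A second model added the interaction of age and genotype and was not tested on simulated data. Alternatives changed the pseudocount, filter, scaling, moderation, covariates and libraries. Removal of the length and GC trend was chosen after seeing the data.

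Gene lists were chosen with earlier results of these data known. Lists are described by counts and medians, with no set test. Named genes are the 12 protein-coding genes with the largest difference in each direction that reached a mean of 100 in 1 age, up to 4 called members of each list by size, the 2 most abundant members of lists with none, the 4 interaction genes of smallest p, and Trdn. Exceptions are stated where they stand. Not every gene that this rule names is described. Whether title numbers paired the 14-month libraries was not settled. Deviations from the 14-month mean, with genotype left in, had correlations of -0.41 and -0.37 for the same number. For different numbers they were -0.41 and -0.40 between genotypes and -0.22 and -0.19 within a genotype. With genotype left in, these correlations cannot exclude a pairing, and the Y-linked sums did go with the number.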

Additional observations from a re-analysis of the deposited data

Results flagged for a closer look

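In 9 of 154 genes named by the rule and tested for it, 1 of the 4 hearts at 14 months stood far from the other 3, and chance gives this for about 1 in 20 groups of 4. The Vps45 value of KO-1 was 106.2, against 54.0 to 61.9 in the others, and that of Wdr89 was 246.5 in KO-1, against 130.9 to 142.3. KO-1 was also low for the proteasome subunit Psma7 (614.4, others 743 to 763.6) and the transporter Slc7a5 (77.1, others 86.6 to 86.9). KO-2 was low for Col1a1 (1112, others 1356 to 1371) and the endothelial gene Plvap (241, others 352.6 to 370.8). WT-1 was high for the cyclin Ccnd1 (1487, others 1107 to 1148) and low for the interferon gene Oasl2 (205.3, others 292.4 to 309.8), and WT-2 was low for the protease Mmp15 (1579, others 1936 to 1965).

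The interaction term of the limma model was called in 8 of the named genes. With a single younger heart per genotype, its p-values measure only the spread between older hearts of the same genotype. The KO minus WT difference was 0.89 for Bag3 (adjusted p = 0.0468), 1.29 for Gsn (adjusted p = 0.0295), 1.79 for Nudt14 (adjusted p = 0.0357) and 0.74 for Ogdh (adjusted p = 0.0429). It was -10.66 for Vcp-rs (adjusted p = 3.19e-05), -7.05 for Eif4a-ps4 (adjusted p = 0.000155), -9.15 for Gm10039 (adjusted p = 0.000314) and -4.44 for Gm42742 (adjusted p = 0.000994). The values of Vcp-rs, Eif4a-ps4 and Gm10039 rest on libraries in which the gene is listed at 0, so they depend on the pseudocount and are no fold changes.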

How the results depend on the processing

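The limma model called 4663 genes by age (2447 higher, 2216 lower) and 287 for the interaction. Leaving out 1 library gave 3246 to 4533 called, 1715 to 2446 higher, 1531 to 2244 lower and 13 to 234 for the interaction. The term for the Y-linked difference gave 2650 (1408 higher, 1242 lower). Without the libraries numbered 1 the counts were 2078, 1119 and 959, and without those numbered 2 they were 3011 in all and 1364 lower. Scaling to genes not mitochondrially encoded gave 1233 lower, and removal of the length and GC trend 1403 higher and 51 for the interaction. Calls for the interaction were 7 without trend and robust moderation and 12 with quantile normalization. The cause was not tested, beyond the smaller number of samples where libraries were left out. A random replicate block by title number gave 7763 calls (4075 higher, 3688 lower), but the ages share no number and whether the numbers paired the samples was not settled. The median of lung and thymus markers turned sign (-0.35 to 0.64 with 2 libraries in the filter, 0.68 with no filter, 0.031 in KO alone, 0.081 with the trend removed, and -0.74 to 0.031 on leaving out 1 library, the latter without WT-3). The median of atrial and conduction markers turned from 0.15 to -0.034 with no filter, -0.032 without number 1 and -0.15 with the trend removed. Values also turned for the unfolded protein response (0.065 with scaling to genes not mitochondrially encoded), mt-Nd3 (0.23, quantile normalization), Vcp-rs (0.050 in WT alone, and -10.61 to 0.050 on leaving out 1 library, the latter without KO-3) and Calm2 (0.0069, trend removed). Of 146 named genes called, 98 kept the call without any 1 library and 48 lost it without at least 1. With the trend removed 129 of 158 named genes kept direction and side of the threshold. Depth is unknown, so what it limits cannot be given.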

Other observations

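Of 24 macrophage markers 3 were called higher at 14 months and 1 lower (2 and 1 with the trend removed). Over all tested genes 17.7% were higher and 16.0% lower, so the shares of this list and of antigen presentation did not exceed the background. For the macrophage markers, the summed level overlapped between the ages (7447 to 10639 at 14 months, 9006 to 10808 at 5 months). Csf1r, the receptor that keeps macrophages alive, stood at 1125, 645, 1084 and 846 against 471 and 296 (log2 difference 1.27, SE 0.26, adjusted p = 0.00882), while Lyz2, the lysozyme of myeloid cells, was lower with 2289, 1976, 2466 and 1672 against 3210.1 and 3154 (log2 difference -0.61, SE 0.17, adjusted p = 0.0252). Cd74, the invariant chain of antigen presentation by class II molecules, gave 1840.3, 1080.5, 1768 and 1922 against 883 and 575 (log2 difference 1.18, SE 0.27, adjusted p = 0.0123), and 2 of 20 genes of that list were called higher and 0 lower (3 and 0 with the trend removed, 7 higher without WT-3 and 5 without WT-2). S100a9, an alarmin of neutrophils, stood at 5.84, 8.68, 12.8 and 12.2 against 33.8 and 94 (log2 difference -2.46, SE 0.38, adjusted p = 0.00275). Of the 9 tested neutrophil and mast cell markers it was the only 1 with a negative difference, and the list median was 0.34. The other 8 were positive, and 1 of them, the receptor Csf3r, was called higher (1.01), a call lost on leaving out 1 library. Thy1, from the T and NK cell list, and Ighg2c, an antibody constant region, were higher by 1.57 and 1.49. Ighg2c was the only 1 called of 10 tested B cell and plasma cell markers, of which 8 were positive and 2 negative. Of 20 T and NK cell markers, 13 were under 10 in every library and only 5 were tested. Of those 5, 2 were called higher and 0 lower, with 3 positive and 2 negative. Without 1 library the call was lost for Csf1r (adjusted p = 0.128 without KO-3), Cd74 (adjusted p = 0.158 without KO-3, with a difference of 0.68 without KO-3), Lyz2 (adjusted p = 0.052 to 0.103 without KO-2, KO-3, WT-2 or WT-3) and Thy1 (adjusted p = 0.0586 without KO-3). Ighg2c stayed called with a difference of 0.86 without KO-3.

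The interferon list had 5 of 42 genes called higher and 5 lower, 2 and 3 with the trend removed, and 2 to 7 and 1 to 5 on leaving out 1 library. As deposited, its shares and those of the cell cycle and glucocorticoid lists below did not exceed the background (17.7% higher, 16.0% lower). The RNA sensor Ddx58 gave 418, 417, 351 and 391 against 208 and 222 (log2 difference 0.87, SE 0.14, adjusted p = 0.0031) and Ifi27l2a, a small membrane protein, gave 163, 209, 234 and 188 against 426 and 339 (log2 difference -0.95, SE 0.19, adjusted p = 0.00782). In the cell cycle list 3 of 44 were higher and 2 lower, or 0 and 1 with the trend removed. Pcna, the DNA polymerase clamp, was lower with 409, 484, 401 and 459 against 819 and 655 (log2 difference -0.74, SE 0.14, adjusted p = 0.00606), but differed by -0.16 with the trend removed. Among glucocorticoid and fasting genes 3 of 25 were higher and 3 lower (2 and 5 with the trend removed, 1 to 5 and 2 to 7 on leaving out 1 library), with the metal-binding protein Mt1 at 1298, 1798, 1069.5 and 882 against 2966 and 2541 (log2 difference -1.17, SE 0.18, adjusted p = 0.00243). The call was lost without 1 library for Ifi27l2a (adjusted p = 0.054 without WT-3).

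In the adipocyte list 3 of 20 genes were called higher and 2 lower, against 17.7% and 16.0% of all tested genes. The KO difference lay above the WT difference in 16 of the 20, against 53.4% of all tested genes. The list medians were 1.32 in KO and -0.40 in WT. Members of the list are not independent, so this share carries no test. Ucp1 and Fasn, chosen after their values were seen, were highest in the 2 KO hearts of 14 months. Cox8b, which is in this list and in the respiratory list, was lowest there. Ucp1, the uncoupling protein of brown fat, stood at 108, 8.71, 465 and 788 against 26.5 and 4.26 (log2 difference 3.55, SE 2.04, adjusted p = 0.266). Fasn, the fatty acid synthase, stood at 326, 829, 3344 and 6334 against 752 and 306 (log2 difference 1.69, SE 1.28, adjusted p = 0.386). Neither was called by age or for the interaction (adjusted p = 0.249 and 0.177). The erythroid genes, of which 0 of 8 were called, summed to 69807 in WT-1 and to 4848 to 22032 in the other libraries.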
